A study of Mus musculus with 7 samples.

Results

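The cardiac myosin heavy and light chains are 7 genes, Myh6, Myh7, Myl1, Myl2, Myl3, Myl4 and Myl7, taken by name, and every array probe carrying one of these gene names was a member probe. They accounted for 7 of 34792 gene names and 10 of 55670 probes. Transcripts were measured on 7 single-colour Agilent arrays of mouse RNA. Cardiac mesenchymal progenitors (CMPs) are adherent stromal cells grown from adult C57BL/6 heart tissue on collagen I, with basic fibroblast growth factor at 40 ng/ml and 10% serum. Postmortem CMPs came from tissue kept after death at 4 °C for 24 h, with 1 atrial and 1 ventricular array, and living CMPs came from living tissue, again with 1 atrial and 1 ventricular array. Heart RNA was the positive control: 1 array of commercial adult total heart RNA, whose strain, age and number of animals are not given in the sources used here, and 2 arrays of C57BL/6 hearts of embryonic day 16.5. Of the fetal hearts, 1 was wild type and 1 carried the transgene C57BL/6-Tg(Myh6-EGFP)MG2, in which the Myh6 promoter drives a fluorescent protein in cardiomyocytes. The labels do not say that arrays of a group are separate cultures or animals, so the spread behind every p-value is that between these samples and may be technical.

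Sarcomeric myosin is the motor of the thick filament. It is built from a pair of heavy chains, which split ATP and pull on actin, each carrying 1 essential and 1 regulatory light chain on its lever arm. Heart muscle uses the alpha chain Myh6 and the slower beta chain Myh7, and mouse ventricles shift from beta to alpha around birth. Myl2 is the ventricular regulatory light chain and Myl7 its atrial counterpart. Myl3 is the ventricular essential light chain, Myl4 is the atrial and embryonic essential light chain, and Myl1 is the essential light chain of fast skeletal muscle.

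Unless stated otherwise, values are log2 processed signals minus the 75th percentile of the array, so that 0 is the level of a rather bright probe. Tests compare a probe between arrays and never probes with one another. Brightness ranks and summed levels, which set probes of an array side by side, are descriptions only. A signal was called above background when the scanner software flagged it as well above background. On the adult array and on both fetal arrays all 7 members were above background, as were all 10 member probes. Among the CMPs, counting main probes (the brighter probe of a gene name on average), 3 members were above background on the postmortem atrial array, 2 on the postmortem ventricular array, and 1 on each living array. Counting any probe, the postmortem ventricular array had 4, since the second probes of Myh6 and Myl1 were above background there. Cardiomyocyte markers outside the myosins followed the same split, with 5 to 7 of 17 above background on the CMP arrays (summed log2 level 2.09 to 4.43) and 17 of 17 on the heart arrays (10.91 to 13.14). Cardiac actin Actc1 was below background on all 4 CMP arrays, whereas stromal markers were above background for 13 of 13 genes on every CMP array (summed log2 level 11.31 to 11.55, against 9.34 to 9.53 in hearts). Of the CMP arrays, the postmortem atrial one was the most distinct: it was at least 2-fold away from them at 4685 to 5298 of 24887 genes, and the other 3 differed from one another at 2407 to 2722 genes.

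**Figure D1:**
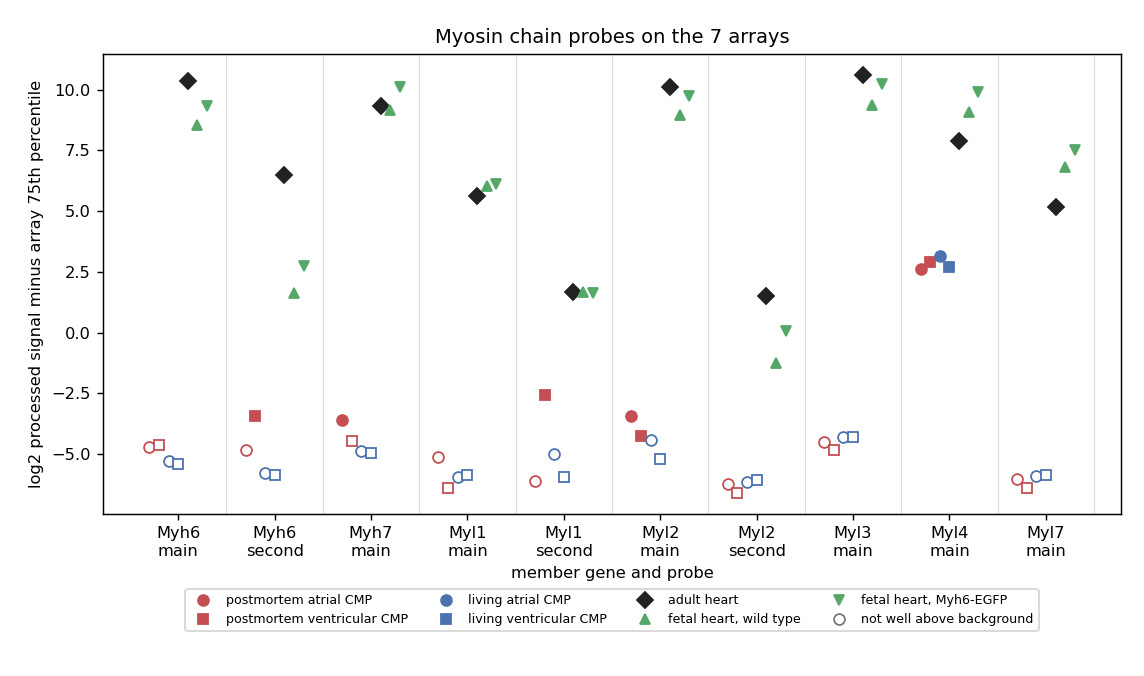
Log2 processed signal minus the array's 75th percentile (vertical axis) for each member probe (horizontal axis; main is the probe tested, second is the other probe of that gene name), 1 point per array, open where the signal was not well above background. Myl4 is the member with filled points for all 4 CMP arrays, at 2.61 to 3.14, and every member is filled for the 3 heart arrays.

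The first comparison asked how much myosin transcript CMPs hold beside intact heart. All 7 members were lower in CMPs than in fetal heart, and all 7 were lower than in adult heart. The 6 members other than Myl4 were tested because the heart arrays were above background, as their CMP arrays were not all so. That choice favours a lower value in CMPs. Of all genes tested against fetal heart 48% were called, 25.2% lower and 22.8% higher. Against adult heart 49.3% were called, 24.6% in each direction. The members' median log2 difference was -13.67 against fetal heart and -13.78 against adult heart, beside medians of -0.01 and 0.00 over all genes tested. With normexp background correction (offset 50) in place of the processed signal, the 6 members other than Myl4 gave smaller differences, -11.96 to -8.20 against fetal and -12.63 to -7.21 against adult heart, so the bounds below hold for the processed signal alone. In RNA from whole tissue or culture, fewer cells of a type and less RNA per cell cannot be told apart.

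Of the heavy chains, Myh6 read -4.71 in postmortem atrial, -4.64 in postmortem ventricular, -5.26 in living atrial and -5.40 in living ventricular CMPs, all below background. The same probe read 10.37 in adult heart and 8.56 and 9.32 in wild-type and transgenic fetal heart. Every CMP array was thus far under every heart array, and because no CMP array had this main probe above background, its difference is a bound. By the main probe Myh6 was at least 9274-fold lower in CMPs than in fetal heart and at least 24891-fold lower than in adult heart (limma adjusted p = 2.75e-05 and 8.95e-05). A bound sets the mean of the bright group against the dimmest signal that still counted as above background on the dim arrays. Myh7 read -3.59, -4.47, -4.85 and -4.93 on the CMP arrays in the same order, 9.32 in adult heart and 9.18 and 10.13 in fetal heart. It was above background on 1 CMP array, the postmortem atrial one. Its log2 difference was -14.11 ± 0.33 (SE) against fetal heart and -13.78 ± 0.42 against adult heart (limma adjusted p = 4.07e-05 and 1.80e-04).

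The Myh6 and Myh7 genes lie next to each other on the minus strand of chromosome 14, and the probes that report them are shown here because the measurements near the heavy chains depend on which stretch a probe reads. Positions follow the scanner tables (mouse build mm9). The main Myh6 probe sits at chr14:55560774-55560833, the second Myh6 probe at chr14:55584132-55584191, toward the start of the gene, and the Myh7 probe at chr14:55589581-55589640. The second Myh6 probe is given whole, the others by their first 30 of 60 bases.
Myh6 main probe: gcacgacgaggaataacctctccagcagac
Myh6 second probe: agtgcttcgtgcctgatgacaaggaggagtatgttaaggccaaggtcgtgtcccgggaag
Myh7 probe: atgaggagtagctcttgtgctacccagctc
The longest run of bases shared by any pair of member probes was 9. The second Myh6 probe read -4.82, -3.44, -5.78 and -5.88 on the CMP arrays, with the postmortem ventricular array above background, and 6.49, 1.62 and 2.73 in adult, wild-type fetal and transgenic fetal heart. In a fit of every probe, its log2 difference between CMPs and hearts was -7.15 ± 0.45 for fetal and -11.47 ± 0.58 for adult heart (limma adjusted p = 2.24e-04 and 2.14e-04).

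Among the ventricular light chains, Myl2 read -3.45 and -4.24 in postmortem atrial and ventricular CMPs, both above background, and -4.44 and -5.19 in living atrial and ventricular CMPs, both below it. In hearts it read 10.12 for adult and 8.96 and 9.72 for the fetal pair. By the main probe Myl2 was lower in CMPs by a log2 difference of -13.67 ± 0.25 against fetal and -14.45 ± 0.33 against adult heart (limma adjusted p = 2.75e-05 and 8.95e-05). The second Myl2 probe was below background on all 4 CMP arrays. It gave smaller bounds, at least 12.6-fold lower than in fetal and at least 53.9-fold lower than in adult heart. Myl3 was below background on all 4 CMP arrays, at -4.82 to -4.30, and read 10.61 in adult heart and 9.37 and 10.23 in fetal heart. It was at least 16818-fold lower in CMPs than in fetal heart and at least 29384-fold lower than in adult heart (limma adjusted p = 2.75e-05 and 9.00e-05). The 2 fetal arrays and the adult array held the main Myl2 probe and the Myl3 probe among their brightest, Myl3 at rank 2 in adult heart and ranks 9 and 3 in fetal heart of 55670 probes.

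The atrial light chains parted from each other in the CMPs. Myl7 read -6.01, -6.39, -5.91 and -5.84 there, all below background, and 5.19, 6.80 and 7.51 in adult, wild-type fetal and transgenic fetal heart. It was at least 2686-fold lower in CMPs than in fetal heart and at least 687-fold lower than in adult heart (limma adjusted p = 3.64e-05 and 1.88e-04). Myl4 read 2.61 in postmortem atrial, 2.91 in postmortem ventricular, 3.14 in living atrial and 2.71 in living ventricular CMPs, above background on every array and within 0.53 of one another. In hearts it read 7.91 for adult and 9.09 and 9.92 for the fetal pair, so that no CMP array reached a heart array. Its log2 difference was -6.66 ± 0.29 against fetal heart, 101-fold lower, and -5.07 ± 0.37 against adult heart, 33.5-fold lower (limma adjusted p = 1.28e-04 and 5.92e-04). Without the postmortem atrial array the differences were -6.48 and -4.89.

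Myl4 was thus the member that all 4 CMP arrays measured, in atrial and ventricular cultures alike, at brightness ranks 5705 to 7017 of 55670 probes, while on the heart arrays it ranked 474, 43 and 12. It has a single probe, at chr11:104448441-104448500 on the plus strand (mm9), whose first 30 bases are given beside the whole Myl7 probe. The 60 bases of the Myl7 probe are spread over 250 bases of the genome, from chr11:5798186 to chr11:5798435 on the minus strand.
Myl4 probe: gttactgttacggagtattggactcacatg
Myl7 probe: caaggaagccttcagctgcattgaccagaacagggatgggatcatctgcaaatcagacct
No other probe of the array shared a run of 20 bases with a member probe. Probes were compared only with probes, so binding to other transcripts was not tested. Of the 17 other cardiomyocyte markers, 4 were above background on all CMP arrays (Tnnt2, Atp2a2, Tnni1 and Cox6a2) and 9 on none. Tnnt2, the thin filament troponin T of heart muscle, read 4.02, 2.73, 4.10 and 0.11 there in the order used above, against 9.95 in adult and 8.18 and 9.09 in fetal heart. Whether cells other than cardiomyocytes carry the Myl4 signal was not tested.

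Myl1, the skeletal essential light chain, was measured in every heart array. Its main probe read -5.10, -6.39, -5.93 and -5.85 in the CMPs, all below background, and 5.61, 6.04 and 6.13 in adult, wild-type fetal and transgenic fetal heart. By this probe Myl1 was at least 1278-fold lower in CMPs than in fetal and at least 922-fold lower than in adult heart (limma adjusted p = 6.98e-05 and 2.05e-04). The second Myl1 probe spans 4248 bases of chromosome 1 (chr1:66976853-66981100, minus strand, mm9) and so reads across a splice junction. It read 1.68 in adult heart and 1.68 and 1.62 in the fetal pair. In the CMPs it was above background on the postmortem ventricular array at -2.56 and below it on the other 3. In the fit of every probe, the second Myl1 probe gave smaller differences of CMPs from hearts than the main one. They were -6.54 ± 0.85 for fetal and -6.57 ± 1.10 for adult heart (limma adjusted p = 0.00198 and 0.00489). Skeletal muscle markers were above background for 10 of 11 genes on the wild-type fetal array, 7 of 11 on the transgenic fetal array, 6 of 11 on the adult array and 4 or 5 of 11 on the CMP arrays. Of the 7 above background on both fetal arrays, 3 were higher on the transgenic and 4 on the wild-type array, by up to 1.16 and 4.49. The main Myl1 probe differed by 0.09 between those arrays. The part of skeletal muscle RNA in the Myl1 values was not tested.

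The promoters of 4 members are shown for the contrast between Myl4 and members whose main probes were below background in all CMPs. Each is the 250 bases before the start site in RefSeq (GRCm38.p6), on the strand of the gene, and all 7 members matched the table. Capitals mark an MCAT element (CATTCC, either strand), an NKX2-5 element (AAGTG, either strand) or a CArG box, the motif bound by serum response factor. The positions are chr14:54966608-54966857 on the minus strand for Myh6, chr9:110763428-110763677 on the plus strand for Myl3, chr11:104550413-104550662 on the plus strand for Myl4 and chr11:5898783-5899032 on the minus strand for Myl7.
Myh6: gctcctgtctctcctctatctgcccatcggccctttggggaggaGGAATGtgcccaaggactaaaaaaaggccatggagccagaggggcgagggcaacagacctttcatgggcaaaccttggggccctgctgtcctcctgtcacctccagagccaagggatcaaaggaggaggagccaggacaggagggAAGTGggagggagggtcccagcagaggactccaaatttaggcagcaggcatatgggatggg
Myl3: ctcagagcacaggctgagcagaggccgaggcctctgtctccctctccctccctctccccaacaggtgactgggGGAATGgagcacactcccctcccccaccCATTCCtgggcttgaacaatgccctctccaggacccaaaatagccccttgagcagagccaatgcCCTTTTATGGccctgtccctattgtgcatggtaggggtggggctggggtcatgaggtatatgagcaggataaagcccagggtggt
Myl4: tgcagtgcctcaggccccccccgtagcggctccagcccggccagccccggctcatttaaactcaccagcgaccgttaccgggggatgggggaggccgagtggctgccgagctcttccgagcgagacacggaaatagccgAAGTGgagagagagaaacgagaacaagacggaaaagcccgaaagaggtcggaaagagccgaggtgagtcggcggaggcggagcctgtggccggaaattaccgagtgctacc
Myl7: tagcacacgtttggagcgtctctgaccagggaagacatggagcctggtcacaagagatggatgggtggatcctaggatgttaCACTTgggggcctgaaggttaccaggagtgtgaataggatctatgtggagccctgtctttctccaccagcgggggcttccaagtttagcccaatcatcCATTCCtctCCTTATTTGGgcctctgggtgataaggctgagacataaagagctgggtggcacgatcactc
The MCAT element occurred in the Myh6, Myh7, Myl1, Myl3 and Myl7 windows, and in 12.6% of all 32851 promoter windows of this length. Myh7 and Myl2 have more than 1 start site and a window for each, and a match in any of them was counted. The MCAT match of Myh7 was in 1 of its windows only. The Myl4 window held none, and its capitals are 1 NKX2-5 element, a motif present in 40.7% of windows. The CArG box occurred in the Myl3 and Myl7 windows, from -85 to -76 and from -61 to -52 relative to the start site, and in 1.47% of all windows. Motifs of GATA factors (AGATAA) and E-boxes (CAGCTG) were found in 9.99% and 13.0% of windows, and among members the first in Myl2 and the second in Myl1 and Myl2. In Myl2 they lay in different windows. The sequence TATAAA on the gene strand (7.59% of windows) and the MEF2 consensus (2.92%) were found in no member window. The motifs do not overlap in the windows printed, and a match describes letters, not a bound site.

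The other myosin genes of the array place these levels. Of 10 other sarcomeric myosin chains, 4 were tested against fetal heart and all 4 were lower in CMPs, and 2 were tested against adult heart and both were lower. None was above background on all 4 CMP arrays, so each was tested through the heart arrays alone. That filter largely set their direction, which is no separate result. Myh7b, a heavy chain of slow muscle and heart, was below background in all CMPs and at least 1440-fold lower than in fetal heart (limma adjusted p = 8.39e-05), where it read 5.60 and 6.91. Myh8, the perinatal skeletal heavy chain, was lower by a log2 difference of -10.44 ± 0.48. The smooth and non-muscle chains gave a mixed picture against fetal heart, with 3 of 8 tested higher, 2 lower and 3 not past the threshold, and a median of 0.02. Myh9, the main non-muscle heavy chain, read 7.11 to 7.42 in CMPs against 5.53 and 5.54 in fetal and 5.24 in adult heart, a log2 difference of 1.71 ± 0.14 against fetal heart (limma adjusted p = 6.33e-04). The regulatory light chain Myl12b was also higher (1.56 ± 0.14), and Myl9 and Myh10 were lower (-2.77 ± 0.27 and -1.99 ± 0.16). Against adult heart, 4 of 9 were higher, among them Myh9 (2.00 ± 0.19) and Myl12b (1.48 ± 0.18), 1 was lower (Myh14, -5.10 ± 1.25), and 4 did not pass.

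Thick filament partners, the proteins that bind, phosphorylate or fold myosin, were lower in CMPs for 16 of 21 genes tested against fetal heart, higher for 1 and not past the threshold for 4, with a median of -5.02. Against adult heart 15 of 20 were lower, 5 did not pass and the median was -7.03. Of 22 partners, 6 were above background on all 4 CMP arrays, so most were tested through the heart arrays alone. The largest differences from fetal heart were those of Mybpc3, cardiac myosin-binding protein C (-12.25 ± 0.75, limma adjusted p = 2.81e-04), and Myom1, an M-band protein (-8.80 ± 0.45, limma adjusted p = 1.82e-04). The 1 higher gene was Unc45a, a general myosin chaperone, which read 4.07 to 4.51 in CMPs and 3.72 and 3.32 in fetal heart (0.81 ± 0.19, limma adjusted p = 0.0181). Its muscle counterpart Unc45b was below background in all CMPs and at least 105-fold lower than in fetal heart. Smyd1, a methyltransferase needed for sarcomere assembly, was above background on every CMP array at 0.76 to 1.24, against 2.02 and 3.12 in fetal heart (-1.62 ± 0.32, limma adjusted p = 0.0103). Its second probe was below background on all 4 CMP arrays (-6.41 to -4.95) and read -0.56 and 0.34 in fetal heart, so the Smyd1 values rest on the probe read.

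**Figure D2:**
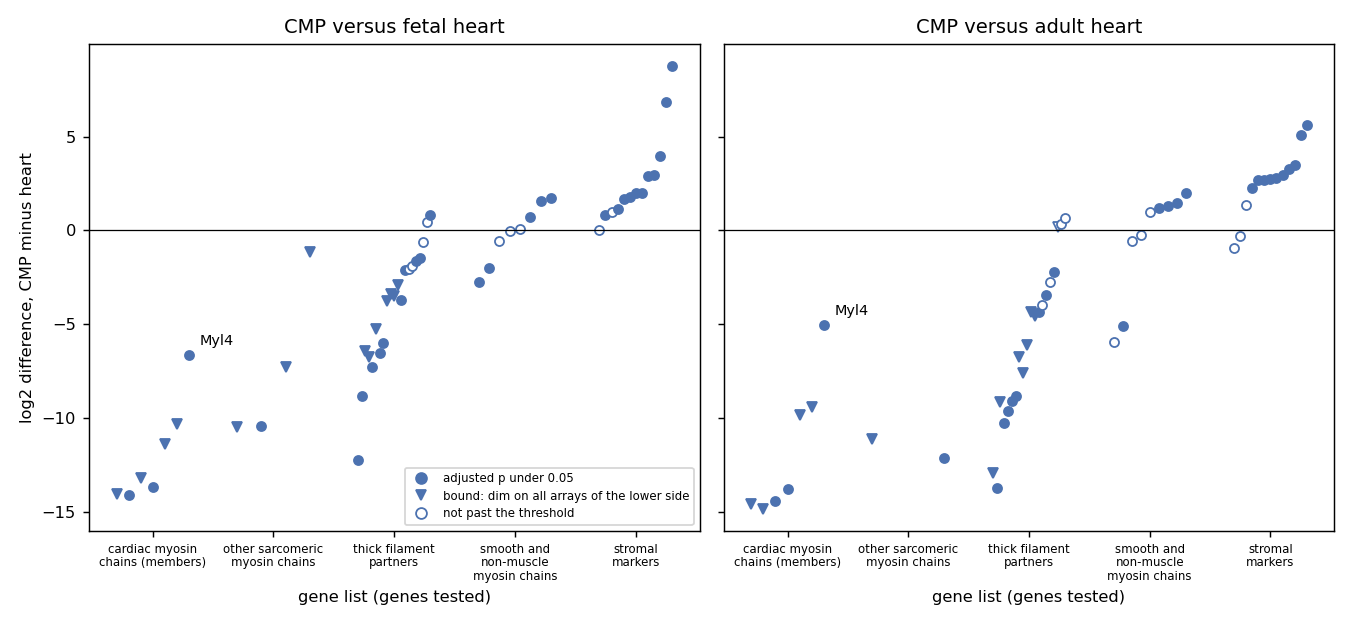
Log2 difference of CMPs from fetal heart (left) and adult heart (right) for the tested genes of 5 lists, 1 point per gene, filled where the limma adjusted p was under 0.05 and a triangle where the value is a bound because the lower side was below background on all its arrays. Myl4 lies at -6.66 and -5.07, above the other 6 members, and the smooth and non-muscle chains lie on both sides of 0.

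The second comparison asked how the members differ between adult and fetal heart. Of the 7 members, 3 passed the threshold, 1 higher and 2 lower in adult heart, and 4 did not. Of all 20946 genes tested, 37% passed, 18.7% higher and 18.2% lower, so the members' share is near that of all genes. The called members were the alpha heavy chain, higher in adult heart, and both atrial light chains, higher in fetal heart.

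Myh6 was higher in adult heart (10.37) than in either fetal heart (8.56 and 9.32), by a log2 difference of 1.42 ± 0.37, 2.68-fold (limma adjusted p = 0.0314). The second Myh6 probe showed a larger difference in the fit of every probe, 4.32 ± 0.64 (limma adjusted p = 0.00528, with 37.6% of probes called), where it read 6.49 in adult and 1.62 and 2.73 in fetal heart. The difference between the 2 probes was not tested. Myh7, the beta chain, read 9.32 in adult heart, between the wild-type fetal heart at 9.18 and the transgenic one at 10.13, and its difference of -0.33 ± 0.46 did not pass (limma adjusted p = 0.594). Without the transgenic fetal array that difference was 0.14, and the Myh6 call was lost without the wild-type one (1.05, limma adjusted p = 0.0783).

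Myl4 fell from 9.09 and 9.92 in the fetal hearts to 7.91 in adult heart, a log2 difference of -1.59 ± 0.41 or 3.02-fold (limma adjusted p = 0.0306). Myl7 fell from 6.80 and 7.51 to 5.19, a difference of -1.97 ± 0.42 or 3.91-fold (limma adjusted p = 0.0183). For both genes the adult array lay below both fetal arrays. Both calls were lost without the transgenic fetal array, where Myl4 gave -1.18 (limma adjusted p = 0.0550) and Myl7 -1.62 (0.0630). Of 8 atrial chamber markers, 1 was called higher in adult heart, 1 lower, and 6 did not pass. The share of atrial tissue in each RNA was not tested.

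The ventricular light chains did not pass with all arrays. Myl2 read 10.12 in adult heart against 8.96 and 9.72 (0.78 ± 0.36, limma adjusted p = 0.138), and Myl3 10.61 against 9.37 and 10.23 (0.81 ± 0.39, limma adjusted p = 0.156). Both were higher on the adult array than on either fetal array, by 0.38 to 1.23, and both passed without the transgenic fetal array (1.16 and 1.23, limma adjusted p = 0.0492 and 0.0498). The second Myl2 probe, at chr5:122555230-122555289 on the plus strand (mm9), read 1.51, -1.25 and 0.07 in adult, wild-type and transgenic fetal heart, a difference of 2.10 ± 0.67 (limma adjusted p = 0.0535). Myl1 did not pass with either probe (-0.47 ± 0.48 and 0.03 ± 1.19, limma adjusted p = 0.471 and 0.988).

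Several main probes were near the top of the heart arrays, though those of Myl1 and Myl7 were not, at ranks 764 to 2347 of 55670. The highest value of any probe was 10.61 on the adult array and 9.80 and 10.35 on the fetal arrays. Myl3 read 10.61, 9.37 and 10.23 on these arrays. No spot was saturated. Before scaling, Myl3 read a log2 signal of 18.37 in adult and 18.04 and 18.23 in fetal heart, and Myh6 18.13, 17.23 and 17.32. The second Myh6 probe, at ranks 1197, 9247 and 6537, read 14.26, 10.28 and 10.73 before scaling. The part of brightness in the smaller difference of the main Myh6 probe was not tested.

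**Figure D3:**
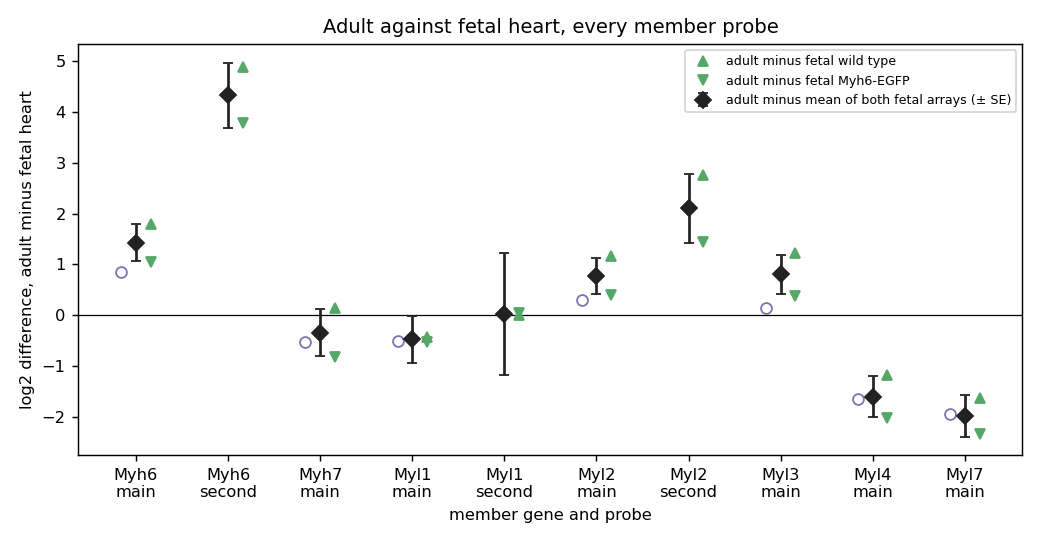
Log2 difference of adult from fetal heart for each member probe, with the mean over both fetal arrays as a diamond (bars, SE of the limma fit of every probe), each fetal array as a green triangle, and the value after quantile normalization as an open circle for the main probes. Both Myh6 probes lie above 0 (4.32 and 1.42), Myl4 and Myl7 lie below it (-1.59 and -1.97), and the triangles of Myh7 lie on both sides.

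All 7 members were higher on the transgenic than on the wild-type fetal array, by 0.09 for Myl1 and 0.70 to 0.95 for the others, with a median of 0.77. Over 19372 genes above background on both arrays the median was 0.14, and it was 0.41 over 297 genes at a wild-type level of at least 8. The shift was not particular to the members. Cardiomyocyte markers outside the myosins were higher on the transgenic array for 17 of 17 genes, by 0.65 to 1.34, and erythroid markers for 10 of 10. Of 13 stromal markers, 3 were higher on the transgenic and 10 on the wild-type array. Without the scaling to the 75th percentile the transgenic array read higher by 0.04 to 0.28 for 6 members and lower by 0.58 for Myl1. With 1 array per genotype these differences have no replicate check.

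Around the heavy chain genes, further probes on the array were examined after their values had been seen. An unnamed probe directly after the Myh7 probe along the minus strand (chr14:55589521-55589580, mm9) read 9.72 in adult and 9.16 and 9.73 in fetal heart and was above background on the postmortem atrial CMP array at -3.87, as was Myh7. It did not differ past the threshold between adult and fetal heart (0.27 ± 0.81, limma adjusted p = 0.808). On the opposite strand, 3371 bases from the Myh7 probe, lies D830015G02Rik (chr14:55592952-55593011, mm9), a long non-coding RNA now named Mhrt that is transcribed antisense to Myh7. It was below background in all CMPs and read 4.93 in adult heart against -4.18 and -2.35 in fetal heart. Its log2 difference of 8.19 ± 0.83, 292-fold, was above that of every member between adult and fetal heart (limma adjusted p = 0.00233). The dimmest signals above background on the wild-type and transgenic fetal arrays were -4.61 and -4.04, so this fold rests on dim fetal values.

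**Figure D4:**
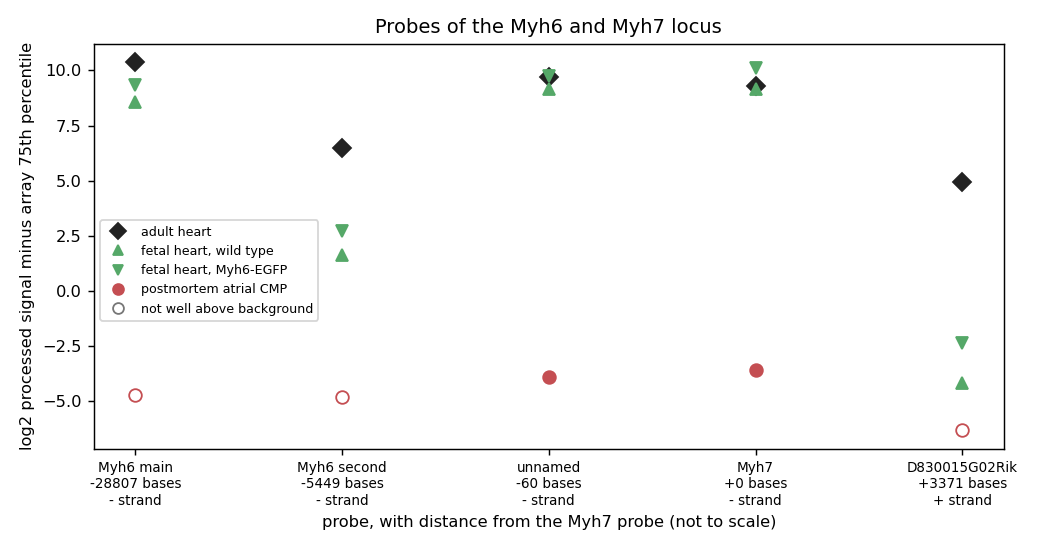
Levels of 5 probes around Myh6 and Myh7 (horizontal axis, ordered along chromosome 14 with the distance from the Myh7 probe; not to scale) on the heart arrays and the postmortem atrial CMP array, as log2 processed signal minus the array's 75th percentile. Adult heart lies above both fetal hearts at the Myh6 probes and at D830015G02Rik, and among or between them at the unnamed and the Myh7 probe.

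Among the other sarcomeric chains, Myh3, the embryonic skeletal heavy chain, read 4.98 and 1.07 in wild-type and transgenic fetal heart and was below background in adult heart, at least 86.7-fold lower (limma adjusted p = 0.0190). Against each fetal array alone the bound was at least 336-fold (wild type) and at least 22.4-fold (transgenic). More skeletal muscle markers were above background on the wild-type array (10 of 11) than on the transgenic one (7 of 11), and their part in the Myh3 values was not tested. Mylpf, the fast skeletal regulatory light chain, was also called lower in adult heart, at -5.51 (below background) against -2.72 and -3.44. It was tested through the fetal arrays alone. The dimmest signal above background on the adult array was -3.41, so the Mylpf difference lies near the floor. Myh7b and Myh8 did not pass. Of 22 thick filament partners, 8 were higher in adult heart, 1 was lower and 13 did not pass, with a median of 1.47. Myom2, an M-band protein, rose by 6.49 ± 0.40 from 2.36 and 2.05 to 8.70 (limma adjusted p = 7.72e-04), and Trim54, a sarcomeric ubiquitin ligase, by 5.40 ± 0.49. Mybpc1, the slow skeletal myosin-binding protein C, was the lower one, at -3.64 (below background) against 0.05 and -0.45. Of 9 smooth and non-muscle chains, Myh14 was higher in adult heart, Myh10, Myl9 and Myl6 were lower, and 5 did not pass. Myh10, the non-muscle heavy chain B, fell from 4.04 and 4.32 to 0.99 (-3.19 ± 0.22, limma adjusted p = 9.91e-04). Proliferation markers were lower in adult heart for 9 of 9 genes tested.

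The central contrast of the design set cells grown from stored tissue against cells grown from living tissue. Of the 7 members, 2 could be tested between postmortem and living CMPs and neither passed, where 0.105% of all 19013 genes did (20 genes). The main probes of the other 5 were not above background on both arrays of either side. Myl4 was 0.53 lower in postmortem than living CMPs in the atrial pair and 0.20 higher in the ventricular pair, so that the groups overlapped, with a pooled difference of -0.17 ± 0.33 (limma adjusted p = 0.911). The difference between the pairs was 0.72 ± 0.61 (limma interaction term, adjusted p = 0.9999). Myl2 was above background on both postmortem arrays (-3.45 and -4.24) and on neither living array (-4.44 and -5.19), a bound of at least 1.13-fold and a difference of 0.97 ± 0.29 (unadjusted p = 0.0180 in limma, adjusted p = 0.354). The dimmest signals that counted as above background on the CMP arrays ran from -4.51 to -3.97, and the Myl2 values ran from -5.19 to -3.45. Myl2 was tested through the postmortem arrays alone, which favours a higher value there. Its difference was 0.09 with normexp background correction and 0.17 with dim values raised to the dimmest signal above background (limma adjusted p = 0.962 and 0.911).

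The third comparison set ventricular against atrial CMPs, a contrast to which the chamber-specific light chains belong. Of the members, 1 could be tested. Myl4, an atrial light chain in the adult, read 2.91 and 2.71 in ventricular and 2.61 and 3.14 in atrial CMPs. The groups overlapped, with a difference of -0.06 ± 0.33 (limma adjusted p = 0.982). No gene of 18912 tested passed in limma, 0% of the total, and 1561 had an unadjusted p under 0.05. Myl7 was below background in both atrial and both ventricular cultures, and Myl2 was above background in 1 atrial and 1 ventricular culture.

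Profiles over the 7 arrays were compared by their root mean square difference, after centring each gene and raising dim values to the dimmest signal above background on the array. Among members, Myh7 and Myl2 (0.36) and Myh6 and Myl2 (0.36) were closest and Myl3 and Myl4 (4.12) farthest apart. The search for the nearest genes left the members out. Of 24887 genes above background on at least 1 array, Actc1, cardiac actin, was nearest to Myl3 (0.06, Pearson r = 1.00 over 7 arrays), and Actc1 was also second for Myh6 (0.41). The unnamed probe beside Myh7 was nearest to Myh7 (0.23), Myl2 (0.22) and Myh6 (0.40) and second for Myl3 (0.41). It adjoins the Myh7 probe on the same strand, and whether it reads the Myh7 transcript was not tested. A haemoglobin gene was second for Myh7 (Hbb-b1, 0.30) and Myl2 (Hba-a2, 0.41) and nearest for Myl1 (Beta-s, 0.40). Bves, a muscle membrane protein gene, was nearest to Myl7 (0.75) and second for Myl1 (0.42), and Myh7b was second for Myl7 (0.82). Nearest to Myl4 were Dusp26 (0.28) and Nfatc2 (0.31), which were below background in all CMPs and thus entered at the floor, and Myl4 itself did not. These likenesses describe 7 arrays that fall into cultures and hearts.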

How the data were processed

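The 7 members and the gene lists were chosen with earlier results of these data known. Per the file headers, the authors deposited linear spot intensity columns, with a processed signal that was background-subtracted and detrended by Feature Extraction of Agilent (10.7.3.1 per the file headers, 9.5.3 per the submitters' processing notes). A log2 table of the whole series, also deposited, matched these signals up to a constant per array, within 0.001, for 100% of probes with 1 spot. Its column medians ran from -4.25 to -3.60, and it served as an alternative. RNA (250 ng per array) was labelled with Cy3. All arrays shared 1 slide and 1 scan date.

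Spots of a probe were averaged, 11 probes with outlier flags were left out (0 of them members), and log2 processed signals were set relative to the 75th percentile of each array. On each array 46.5% to 52.5% of probes were well above background, and the number of arrays limits the precision. Each gene name was tested through the probe with the highest mean. The test was limma 3.58.1 (lmFit, eBayes with a trend, two-sided; R 4.3.3) in 1 fit of 7 arrays with terms for living CMP, postmortem CMP, adult heart, fetal heart and CMP chamber, leaving 2 residual degrees of freedom. Tested genes were above background throughout at least 1 side, with Benjamini-Hochberg adjustment over all of them and a threshold of 0.05. The fit was tested on simulated data. Named genes outside the members were the 2 largest called differences in each direction per list, genes used to check a label, the 2 nearest profiles per member, and genes said to have been seen first. Unc45b, Smyd1 and genes named for their role were added after their values were seen. Alternatives changed the background correction, scaling, filter, floor, probe choice, moderation, chamber term and arrays used.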

Additional observations from a re-analysis of the deposited data

How the results depend on the processing

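Against fetal heart all 7 members, and against adult heart all 7, kept their direction and call under every alternative run, including each array left out except the adult one in its own comparison. Sizes moved: with normexp background correction Myl1 and Myl7 gave -8.20 and -9.27 against fetal and -7.63 and -7.21 against adult heart. With the mean of all probes Myh6 gave -10.55 and Myl2 -9.67 against fetal heart. Between adult and fetal heart the number of members called was 1 without the variance trend and ran from 2 to 5 when 1 array was left out. The value 5 came from leaving out any 1 CMP array, where 1 residual degree of freedom remained and the limma prior took infinite weight, which added Myl2 and Myl3. Both also passed without the transgenic fetal array, where Myl4 and Myl7 did not. Myh6 gave 0.85 (limma adjusted p = 0.0646) after quantile normalization. With 1 fetal array left out Myh7 ran from -0.81 to 0.14, the positive value without the transgenic array. The members called between postmortem and living CMPs ran from 0 to 1 with 1 array left out. The 1 was Myh7 (1.27) without the postmortem ventricular array, which left the postmortem atrial array alone on its side. Of the CMP arrays only that one had Myh7 above background, so the filter favoured a higher postmortem value. There too 1 residual degree of freedom remained and the limma prior took infinite weight. A larger share of all genes passed in that fit than in the main one. With 1 CMP array left out, Myl4 ran from -0.53 to 0.20 between postmortem and living CMPs (positive without either atrial array) and from -0.42 to 0.30 between chambers (positive without either living array). Scaling on the median of shared genes moved the median of all genes by over 0.1 where CMPs were compared with hearts, to -0.18 against fetal heart and -0.23 against adult heart. For adult against fetal heart that median went from 0.09 to 0.15. This scaling changed no member's call. A slide or date block was not run, since all arrays shared 1 of each. No paired analysis was possible because the labels give no replicate numbers, and chamber is already a term. A single adult array limits its comparisons, as its spread is taken from the other groups.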

Other observations

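Probes of 1 gene name did not always agree. The Myh8 probe that represented the gene was above background on 3 of 4 CMP arrays (-3.41 and -2.69 for the postmortem pair, -2.71 and -3.72 for the living pair, atrial first) and read 9.02 in adult and 6.70 and 7.93 in fetal heart. Of its other probes, 1 was below background on all 7 arrays. Another read 3.20 in adult and -0.05 and 1.41 in fetal heart, and the last was above background on the wild-type fetal array only, at -2.58. The Myh8 levels given for CMPs and hearts are therefore those of 1 probe.

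Erythroid markers were above background for 10 of 10 genes in both fetal hearts and 7 of 10 in adult heart (summed log2 level 11.59 to 12.21), and for 2 to 4 of 10 in CMPs (-1.19 to -1.09). Endothelial markers were above background for 9 of 9 genes in all hearts and 8 or 9 of 9 in CMPs. Of them, 7 were called lower in CMPs than in fetal heart and 2 did not pass, with a median of -3.09.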
